A study of Homo sapiens with 8 samples.

Results

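The 9 genes described here encode the cell's machinery for showing peptides on MHC class I molecules. They are the heavy chains HLA-B, HLA-C and HLA-E, the light chain B2M, the peptide transporter subunits TAP1 and TAP2, the loading factor TAPBP, and the immunoproteasome subunits PSMB8 and PSMB9. They were taken by name, with no threshold on a measured value, though earlier results of these data were known when they were named, and all 9 were found among the 13546 genes of the count table. RNA came from tumours that grew in nude mice after injection of MDA-MB-231, a human triple-negative breast cancer cell line. There were 4 tumours of CDK4KO cells, in which the gene of cyclin-dependent kinase CDK4 is labelled as knocked out, and 4 of CDK4WT cells, which carry the intact gene. All 8 tumours share the cell line, the nude host and the absence of any labelled drug. The labels do not say how CDK4 was disrupted, whether the knockout line is a clone, or whether each tumour came from its own mouse, so a p-value here measures the spread between these tumours. Nude mice lack mature T cells but keep natural killer cells, macrophages and B cells, and the sources used here do not say how reads of mouse origin were treated.

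Proteins in the cytosol are cut by the proteasome, and the peptides are pumped into the endoplasmic reticulum by the TAP transporter. There tapasin, the product of TAPBP, holds an empty heavy chain and its light chain next to the transporter until a fitting peptide has bound, and the complex then moves to the cell surface for inspection by CD8+ T cells and natural killer cells. Most of these genes are induced by interferon gamma, through factors that include IRF1 and NLRC5, and inhibitors of CDK4 and CDK6 have been reported to raise antigen presentation by tumour cells. The comparison of CDK4KO with CDK4WT tumours asks whether loss of CDK4 alone is accompanied by such a rise.

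The promoters of the members with the highest correlations across tumours, none of which passed an adjusted test, and of the transporter subunit with the largest genotype difference are shown because interferon and NF-kB act on these genes through short motifs upstream of the start site. The RefSeq promoter table (GRCh38.p14) held 8 of the 9 members, and the 250 bases before the start site are printed on the strand of the gene, 5′ to 3′. Capitals mark matches, on either strand, to the interferon-stimulated response element (ISRE, GAAANN followed directly by GAAA), a shorter form of it (GAANNGAAA), an NF-kB-like motif (GGGNN followed directly by TTNCC), the CCAAT box (CCAAT) and the core of the cyclic AMP response element, or CRE (TGACG). Matches can overlap, so that a capital run can hold more than 1. The windows are chr6:31357180-31357429 on the minus strand for HLA-B, chr6:31272093-31272342 on the minus strand for HLA-C, chr15:44711267-44711516 on the plus strand for B2M, chr6:32853705-32853954 on the minus strand for TAP1, chr6:33314079-33314328 on the minus strand for TAPBP and chr6:32853942-32854191 on the plus strand for PSMB9.
HLA-B: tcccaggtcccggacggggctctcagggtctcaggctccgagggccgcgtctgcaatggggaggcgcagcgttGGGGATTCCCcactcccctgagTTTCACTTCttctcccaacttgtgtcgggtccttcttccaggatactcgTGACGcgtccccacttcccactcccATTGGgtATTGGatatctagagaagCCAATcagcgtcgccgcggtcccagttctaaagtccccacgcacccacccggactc
HLA-C: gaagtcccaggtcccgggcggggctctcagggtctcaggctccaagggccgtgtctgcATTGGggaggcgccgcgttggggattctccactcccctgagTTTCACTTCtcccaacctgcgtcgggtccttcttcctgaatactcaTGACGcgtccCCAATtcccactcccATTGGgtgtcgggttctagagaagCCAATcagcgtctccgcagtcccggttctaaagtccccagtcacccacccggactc
B2M: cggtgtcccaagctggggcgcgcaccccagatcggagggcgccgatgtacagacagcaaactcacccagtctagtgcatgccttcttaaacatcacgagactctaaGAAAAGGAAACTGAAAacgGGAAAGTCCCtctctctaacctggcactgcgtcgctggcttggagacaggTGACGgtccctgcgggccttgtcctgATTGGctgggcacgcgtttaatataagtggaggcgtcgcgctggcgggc
TAP1: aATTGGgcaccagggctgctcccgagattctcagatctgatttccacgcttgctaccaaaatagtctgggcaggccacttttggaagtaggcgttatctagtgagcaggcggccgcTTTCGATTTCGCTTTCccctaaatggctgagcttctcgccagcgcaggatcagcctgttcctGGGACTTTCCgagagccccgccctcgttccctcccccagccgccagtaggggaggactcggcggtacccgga
TAPBP: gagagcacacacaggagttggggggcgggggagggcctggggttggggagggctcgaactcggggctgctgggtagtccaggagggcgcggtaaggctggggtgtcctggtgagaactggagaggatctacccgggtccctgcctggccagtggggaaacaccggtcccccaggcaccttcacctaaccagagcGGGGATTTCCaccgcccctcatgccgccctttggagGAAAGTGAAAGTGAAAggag
PSMB9: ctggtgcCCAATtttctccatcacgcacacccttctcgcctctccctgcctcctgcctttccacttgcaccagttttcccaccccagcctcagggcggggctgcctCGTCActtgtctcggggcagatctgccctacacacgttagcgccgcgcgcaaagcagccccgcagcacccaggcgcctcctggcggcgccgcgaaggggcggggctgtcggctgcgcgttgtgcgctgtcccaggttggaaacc

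The HLA-B and HLA-C windows were near copies of each other, with 226 identical positions in an alignment of 254, or 89.0%, whereas no other pair of members exceeded 50.4%. Both carried the same short ISRE match and the same CRE core, but the NF-kB-like match at positions -177 to -168 from the start site stood in HLA-B alone of the pair. The ISRE had matches in 4 of the 8 members searched (B2M, TAP1, TAP2 and TAPBP), against 3.02% of 35116 promoters of the same length. The short ISRE form had matches in 3 of 8 members (HLA-B, HLA-C and TAP2), against 6.56% of all promoters. The NF-kB-like motif had matches in 4 of 8 members (HLA-B, B2M, TAP1 and TAPBP), against 5.07% of all promoters. The CCAAT box was found in 5 of 8 members and 32% of promoters, and the CRE core in 6 of 8 members and 21.2% of promoters. TAP1 and PSMB9 are neighbours that are read in opposite directions, and their printed windows overlap at the ends farthest from the start sites. The CCAAT match of TAP1 (-249 to -245) and that of PSMB9 (-243 to -239) are the same bases in this overlap. The same site is thus counted for both genes. These matches describe letters in the reference genome and were not tested for binding.

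The library totals were 27841000 to 33618000 counts over the table. The knocked-out gene itself had 111, 119, 125 and 134 CPM (read counts scaled to a common library size with TMM) in CDK4KO tumours, against 115, 107, 116 and 112 CPM in CDK4WT tumours. The count of CDK4 thus was not lower in the tumours labelled CDK4KO (log2 fold change 0.12 ± 0.065 SE, edgeR adjusted p = 0.477), but 43.2% of its exon bases also belong to TSPAN31 on the other strand, whose reads may be among them, and the use of strand is not stated. The genotype of each library therefore rests on its label, and CDK4KO and CDK4WT below mean libraries labelled so. On principal component 1 the CDK4KO tumours, at -27.1 to -1.15, lay below the CDK4WT tumours, at 4.05 to 15.4, and CDK4KO tumour 4 was the lowest. CDK4KO tumour 1 stood apart from the other 7 on principal component 2, at -31.3 against -1.49 to 9.54. Markers of the cell line were present: VIM, an intermediate filament of mesenchymal cells, averaged 9188 ± 1381 CPM in CDK4KO and 9818 ± 1153 CPM in CDK4WT tumours (SD, n = 4 each), the epithelial adhesion gene EPCAM 10.03 ± 1.1 and 9.65 ± 1.68 CPM, and the hormone receptor genes ESR1 and PGR were not among the genes of the table. Of the endothelial markers 7 of 10 were measured and 7 had a positive difference. They summed to 315 to 378 CPM in CDK4KO and 249 to 288 CPM in CDK4WT tumours. Most of these sums came from ESAM and ROBO4. ESAM averaged 160 and 140 CPM in CDK4KO and CDK4WT tumours, and ROBO4 159 and 110 CPM. PECAM1 averaged 7.80 and 6.15 CPM and VWF 1.05 and 0.955 CPM, while CDH5, EMCN and CLDN5 were not measured. Whether the ESAM and ROBO4 RNA came from vessel cells was not tested. Of the adipocyte and muscle markers 3 of 10 were measured and 3 had a negative difference, with sums of 5.22 to 9.39 CPM in CDK4KO and 9.43 to 28.3 CPM in CDK4WT tumours. Haematopoietic markers (12 of 20 measured, 6 positive and 6 negative) summed to 220 to 406 CPM in CDK4KO and 249 to 314 CPM in CDK4WT tumours, and fibroblast and pericyte markers (7 of 10 measured, 4 positive and 3 negative) to 711 to 1236 CPM in CDK4KO and 811 to 1230.0 CPM in CDK4WT tumours. The edgeR test called 0 of these markers after adjustment. Endothelial and blood cells also express class I genes, and the part of these cells in the levels below was not tested; in whole tumours, fewer cells of a type and less RNA per cell cannot be told apart.

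None of the 9 class I presentation genes passed the test for a difference between CDK4KO and CDK4WT tumours. At an adjusted p of 0.05 edgeR's quasi-likelihood test called 0 of 9 members, where it called 8 of all 13546 genes (0.0591%), and the count was also 0 with DESeq2, which called 2.33% of genes, and with limma voom, which called 2.10%. At an unadjusted p under 0.05 there was 1 member, TAP1, of 9, against 13.0% of all genes in either direction and 6.64% with CDK4KO higher. The median difference over the members was 0.0062 on the log2 scale, with 6 positive and 3 negative, and that over all genes was 0.0037. These signs are not firm: with limma voom and library weights HLA-B, B2M, TAPBP and PSMB8 had negative values. The precision was close to that of other genes, with a median standard error of 0.090 for members and 0.093 for all genes. Every 95% interval lay within 0.32 of 0 on the log2 scale, and as changes in level they ran from -19.0% for PSMB9 to 22.8% for TAP1.

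**Figure D1:**
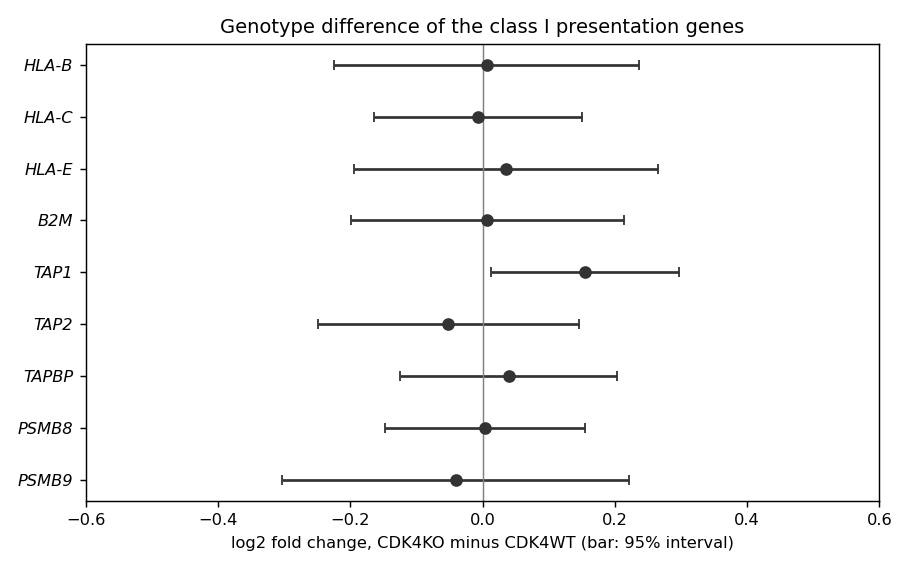
Difference between CDK4KO and CDK4WT tumours for each class I presentation gene, as the log2 fold change of the edgeR fit (x axis, CDK4KO minus CDK4WT), with points for the estimate and bars for the 95% interval from 4 tumours of each genotype. The estimates run from -0.052 (TAP2) to 0.15 (TAP1), and 8 of 9 intervals include 0.

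Among the heavy chains, which form the peptide groove, HLA-B had 281, 236, 261 and 279 CPM in the 4 CDK4KO tumours and 225, 234, 284 and 309 CPM in the 4 CDK4WT tumours. Both the lowest and the highest of the 8 values lay in CDK4WT tumours, 1.38-fold apart, so the CDK4KO values fell inside the CDK4WT range. The log2 fold change was 0.0062 ± 0.10 (SE), with a 95% interval of -0.22 to 0.24 and an edgeR adjusted p of 0.990. HLA-C, a heavy chain that is also a main ligand of inhibitory receptors on natural killer cells, had 257, 225, 227 and 234 CPM in CDK4KO tumours and 218, 223, 254 and 251 CPM in CDK4WT tumours. It was the steadiest heavy chain, with 1.18-fold between its highest and lowest library, and the genotypes overlapped over nearly the whole range. Its log2 fold change was -0.0071 ± 0.071, with an interval of -0.16 to 0.15 (edgeR adjusted p = 0.979).

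HLA-E presents leader peptides of the other heavy chains to the NKG2A receptor of natural killer cells. It had 457, 380.2, 365 and 311 CPM in CDK4KO tumours, against 358, 349.6, 365 and 404 CPM in CDK4WT tumours. CDK4KO tumours 1 and 4 held the highest and the lowest of all 8 values, 1.47-fold apart, which was the widest spread of any member, and the CDK4WT values lay between them. The log2 fold change was 0.035 ± 0.10, with an interval of -0.19 to 0.27 (edgeR adjusted p = 0.919).

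B2M, the light chain without which classical heavy chains do not reach the surface, had 591, 466, 473 and 557 CPM in CDK4KO tumours and 487, 490.2, 512 and 587 CPM in CDK4WT tumours. CDK4KO tumours 1 and 4 and CDK4WT tumour 4 were the highest, and CDK4KO tumours 2 and 3 the lowest. The log2 fold change was 0.0072 ± 0.094, with an interval of -0.20 to 0.21 (edgeR adjusted p = 0.986).

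The transporter subunits differed from each other in how the genotypes lay. TAP1 had 51.9, 53.5, 51.9 and 51.9 CPM in CDK4KO tumours, against 47.4, 44.1, 51.8 and 44.7 CPM in CDK4WT tumours. All CDK4KO values were above all CDK4WT values, but CDK4KO tumour 4, at 51.886 CPM, only just exceeded CDK4WT tumour 3, at 51.833 CPM. TAP1 was the only member whose genotypes did not overlap, 1 of 9, where 7.68% of all genes did not overlap in either direction and 3.87% with CDK4KO higher. It averaged 52.3 ± 0.805 CPM in CDK4KO and 47.0 ± 3.52 CPM in CDK4WT tumours (SD, n = 4 each). The log2 fold change of 0.15 ± 0.064 (interval 0.013 to 0.30), or 11.3%, did not pass the adjustment (edgeR adjusted p = 0.341). Unadjusted, edgeR gave it a p of 0.0352, and it was higher in 4 of 4 CDK4KO tumours than in any CDK4WT tumour.

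TAP2, the partner subunit, had 61.8, 71.8, 61.7 and 69.0 CPM in CDK4KO tumours and 73.8, 71.3, 72.2 and 56.8 CPM in CDK4WT tumours. CDK4WT tumours 1 to 3 were close together and tumour 4 was the lowest of the 8. The log2 fold change was -0.052 ± 0.090, with an interval of -0.25 to 0.15 (edgeR adjusted p = 0.848). TAPBP, which encodes tapasin, had 320.4, 303, 305 and 347 CPM in CDK4KO tumours and 329, 299, 334 and 279 CPM in CDK4WT tumours, with the highest value in CDK4KO tumour 4 and the lowest in CDK4WT tumour 4. Its log2 fold change was 0.039 ± 0.074 (interval -0.12 to 0.20, edgeR adjusted p = 0.866).

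PSMB8 and PSMB9 encode catalytic subunits that replace PSMB5 and PSMB6 in the immunoproteasome, the form that favours peptides fit for class I binding. PSMB8 had 39.97, 37.3, 33.9 and 37.5 CPM in CDK4KO tumours and 37.1, 35.6, 39.4 and 36.2 CPM in CDK4WT tumours. The extremes of the 8 values were both CDK4KO, and its log2 fold change was 0.0040 ± 0.069 (interval -0.15 to 0.15, edgeR adjusted p = 0.990). PSMB9 had 12.4, 12.9, 11.7 and 16.1 CPM in CDK4KO tumours, against 14.4, 13.2, 15.4 and 11.7 CPM in CDK4WT tumours. CDK4KO tumour 4 was the highest of the 8, and the log2 fold change was -0.041 ± 0.12 (interval -0.30 to 0.22, edgeR adjusted p = 0.918). Its counts were the lowest of the members, 338 to 495 reads a library, against 14283 to 17287 for B2M.

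**Figure D2:**
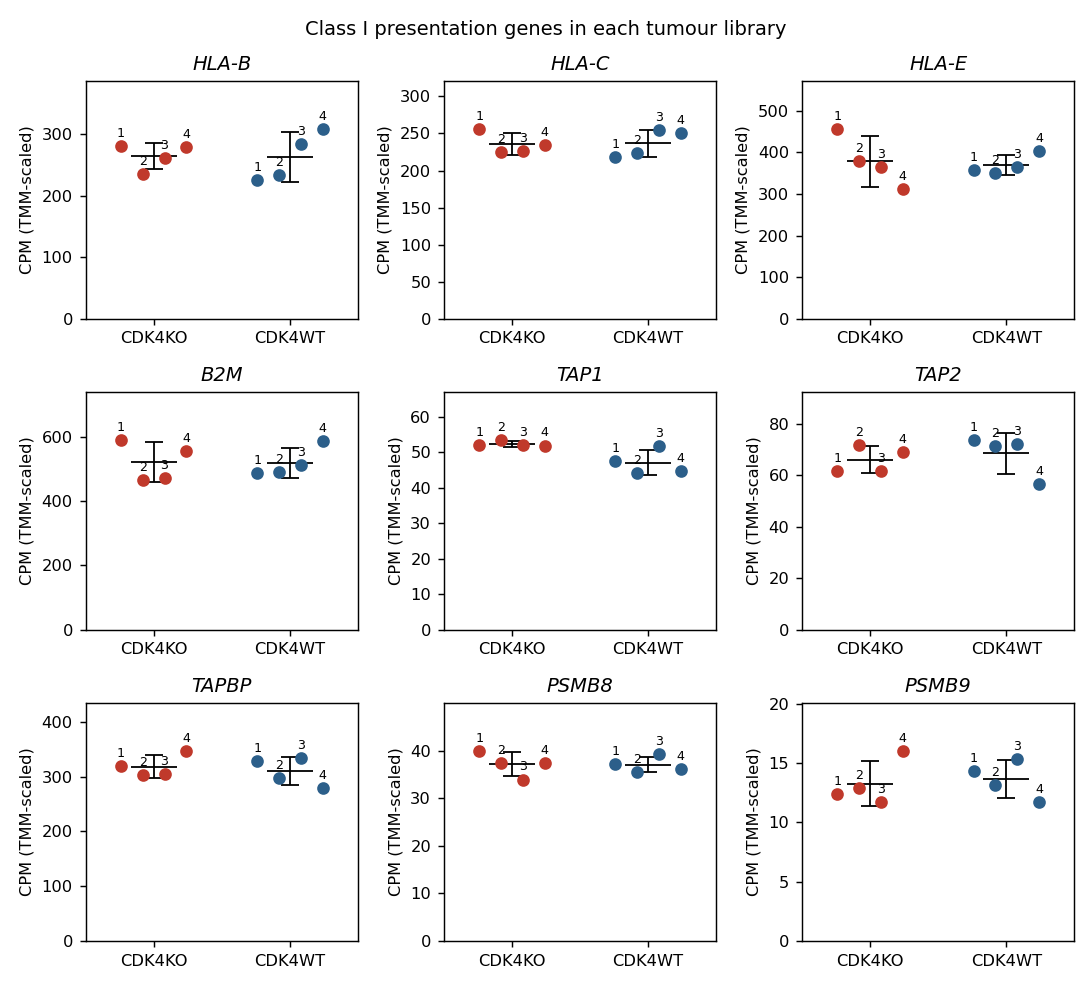
Level of each class I presentation gene in each tumour library, in TMM-scaled CPM on axes that start at 0 (y axis), with CDK4KO tumours in red on the left and CDK4WT tumours in blue on the right, numbered by replicate; horizontal bars show the mean and whiskers the SD (n = 4 each). The genotypes overlap in 8 panels, and in the TAP1 panel 51.886 CPM in CDK4KO tumour 4 stands just above 51.833 CPM in CDK4WT tumour 3.

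The 9 members covered a wide range of levels, and their order depends on the length by which counts are divided. Per kilobase of all annotated exons, HLA-E was highest at 126 ± 14.5 CPM (mean ± SD over all 8 tumours), followed by HLA-C at 94.2 ± 6.16, HLA-B at 86.4 ± 9.74, B2M at 85.6 ± 8.35 and TAPBP at 62.2 ± 4.38 CPM per kilobase. The peptide supply genes were lower: PSMB8 stood at 12.4 ± 0.650, TAP2 at 10.5 ± 0.986, TAP1 at 10.3 ± 0.769 and PSMB9 at 4.39 ± 0.532 CPM per kilobase. The 8 tumours kept HLA-E above HLA-C, B2M above TAPBP, TAPBP above PSMB8 and TAP1 above PSMB9 with ranges that did not overlap. Neighbours that could not be ordered by their ranges were HLA-C and HLA-B, HLA-B and B2M, PSMB8 and TAP2, and TAP2 and TAP1; HLA-B exceeded B2M in 4 of 8 tumours and TAP2 exceeded TAP1 in 5 of 8. With the length of the longest protein-coding transcript, a choice made after the data were seen, B2M came first at 305 ± 29.8 CPM per kilobase, above HLA-B at 170 ± 19.2, HLA-C at 152 ± 9.94 and HLA-E at 144 ± 16.5, and PSMB9 at 17.0 ± 2.06 exceeded TAP1 at 16.8 ± 1.249 in 4 of 8 tumours. So the order within each set is not settled by these counts. Both lengths kept HLA-B, HLA-C, HLA-E, B2M and TAPBP above the other 4 members in every tumour. By CPM not divided by length, B2M ranked at percentile 98.4 of all genes and PSMB9 at percentile 32.1.

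**Figure D3:**
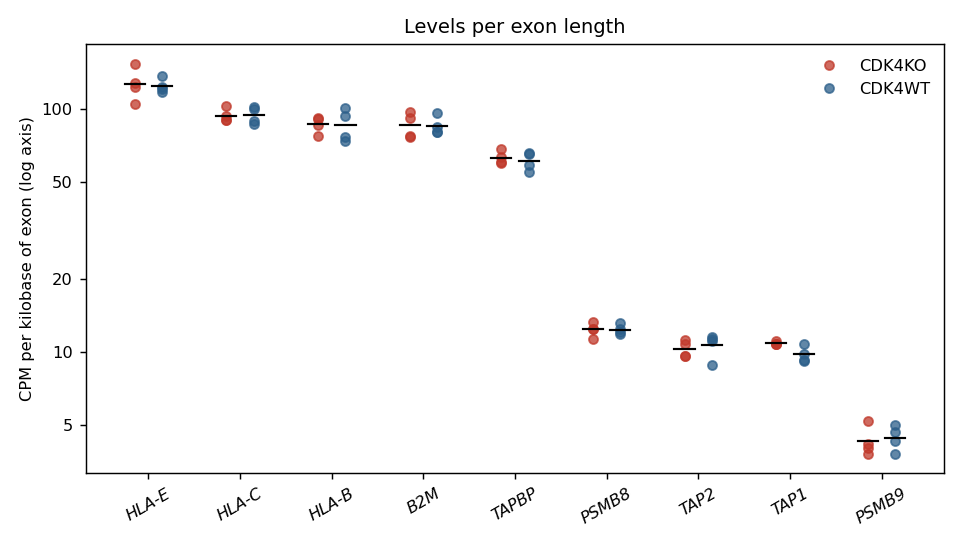
Levels of the class I presentation genes in CPM per kilobase of all annotated exons (y axis, log scale), 1 point per tumour, with CDK4KO in red left of CDK4WT in blue and a bar at each genotype's mean. The genes fall into an upper set, HLA-E to TAPBP, with means over 8 tumours of 62.2 to 126, and a lower set, PSMB8 to PSMB9, with means of 4.39 to 12.4.

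The sequences limit how exactly reads can be assigned among these genes. In 50-base windows, 5.13% of the HLA-E transcript, 6.71% of HLA-C and 2.54% of HLA-B were identical to a transcript of another gene, mostly other class I genes, and 0 windows of B2M and PSMB8 were. TAP2 shared 35.8% of its windows with AL669918.1, a gene model annotated over it, and PSMB9 shared 12.1% with PSMB8-AS1. In GENCODE 29 (hg38), HLA-B (ENSG00000234745) runs at chr6:31269491-31357188 and HLA-C (ENSG00000204525) at chr6:31268749-31272130, both on the minus strand, and 35 exon bases belong to both. A further 542 exon bases of HLA-B overlap the pseudogene AL671883.2 on the other strand, so that 18.9% of its exon bases also belong to another gene. TAP2 (ENSG00000204267, chr6:32821833-32838780, minus strand), PSMB8 (ENSG00000204264, chr6:32840717-32844703, minus strand), PSMB9 (ENSG00000240065, chr6:32844136-32859585, plus strand) and TAP1 (ENSG00000168394, chr6:32845209-32853978, minus strand) lie next to each other, and the noncoding PSMB8-AS1 overlaps 20.6% of the exon bases of PSMB8 together with PSMB9, and 9.49% of those of TAP1. Whether counting used strand is not stated in these sources, and reads of PSMB8-AS1, at 1.83 ± 0.444 CPM in CDK4KO and 1.82 ± 0.288 CPM in CDK4WT tumours, cannot be told apart from those of its partners. HLA-E (ENSG00000204592, chr6:30489467-30494205, plus strand), TAPBP (ENSG00000231925, chr6:33299694-33314387, minus strand) and B2M (ENSG00000166710, chr15:44711487-44718877, plus strand) shared no exon base with another gene.

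Of 9 measured heavy chains and class I-like ligands outside the members, 0 were called, 3 differences were positive and 6 negative. HLA-G, a nonclassical heavy chain best known from the placenta, was low, at 1.78 to 3.47 CPM in CDK4KO and 2.51 to 4.30 CPM in CDK4WT tumours.

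The members did not all rise and fall together across the 8 tumours. The r of a member with the mean of the other members ran from -0.15 for TAP2 to 0.86 for PSMB8. Of the 36 pairs, 25 had a positive and 11 a negative Pearson r of log2 CPM over the 8 tumours, with a median of 0.226. By exact permutation over all pairings of the tumours, 5 pairs had an unadjusted p under 0.05, and none passed Benjamini-Hochberg adjustment over the 36 pairs (smallest adjusted p = 0.185 for Pearson and 0.164 for Spearman, exact permutation).

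The highest r was that of HLA-B with HLA-C, which are neighbours on the chromosome and whose promoter windows were the near copies shown above. Their r was 0.87 (exact permutation p = 0.0103, adjusted p = 0.185) and Spearman's rho 0.905 (exact permutation p = 0.00456, adjusted p = 0.164). The HLA-B transcript also shared 30 of its 50-base windows with HLA-C. Whether position, promoter likeness or reads that fit both genes bear on this r was not tested. Without the 2 tumours farthest from the HLA-B median r was 0.774, and with any single tumour left out it was 0.828 to 0.903. B2M, which lies on another chromosome, went with both: r was 0.79 with HLA-B (rho 0.69, exact permutation p = 0.0284 and 0.0694) and 0.773 with HLA-C (rho 0.738, exact permutation p = 0.0330 and 0.0458), with an adjusted p of 0.297 for each r. Without the 2 tumours farthest from the median of the first gene these were 0.816 and 0.870.

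Another high r joined loading and peptide supply. TAPBP and PSMB9 had an r of 0.855 (exact permutation p = 0.00781, adjusted p = 0.185) and a rho of 0.786 (exact permutation p = 0.0279, adjusted p = 0.499), both highest in CDK4KO tumour 4 and lowest in CDK4WT tumour 4. Without those 2 tumours r was 0.714, and leaving out single tumours gave 0.775 to 0.920. Measured as deviations from each genotype's mean, their r was 0.913. TAP2 and PSMB9 had an r of 0.721 (rho 0.714, exact permutation p = 0.0473 and 0.0576, adjusted p = 0.321 for r), which fell to 0.425 without CDK4KO tumour 3 and CDK4WT tumour 4 and so rested on them, as did the r of 0.56 of TAP2 with TAPBP (rho 0.452, exact permutation p = 0.154 and 0.268, adjusted p = 0.483 for r), which was -0.062 without the same tumours. TAP2 had a negative r with each of the chains, but none had an unadjusted exact permutation p under 0.05. Its r was -0.71 with HLA-B (rho -0.548, exact permutation p = 0.0534 and 0.171, adjusted p = 0.321 for r) and -0.60 with B2M (rho -0.429, exact permutation p = 0.115 and 0.299, adjusted p = 0.460 for r). The relation of TAP2 with B2M rested on CDK4KO tumour 1 and CDK4WT tumour 4, without which r was 0.131. Leaving out the same tumours raised other values. The r of B2M went from 0.030 to 0.841 with TAPBP and from -0.028 to 0.859 with PSMB9. TAP1 and TAP2, whose products pair to form the transporter, had an r of 0.16 (rho -0.0476, exact permutation p = 0.686 and 0.935, adjusted p = 0.905 for r). This r pools the genotypes, which did not overlap in TAP1. Measured as deviations from each genotype's mean, the r of TAP1 with TAP2 was 0.470. The pooled r was -0.350 without CDK4WT tumours 2 and 4, so the relation of this pair is not settled here.

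**Figure D4:**
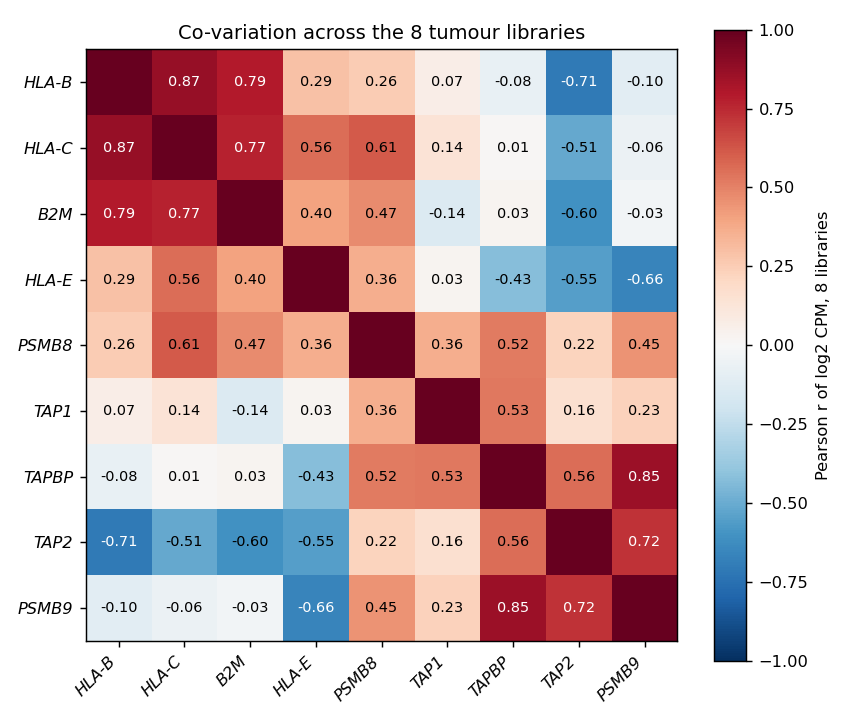
Pearson r of log2 CPM over the 8 tumours for each pair of class I presentation genes, from -1 (blue) to 1 (red), with the value in each square. HLA-B, HLA-C and B2M form a red square of 0.77 to 0.87, and TAPBP with PSMB9 stands at 0.85, while the 0.56 and 0.72 of TAP2 with them were -0.062 and 0.425 without CDK4KO tumour 3 and CDK4WT tumour 4; no pair passed the adjusted test.

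The mean of the members' standardised log2 levels was high in CDK4KO tumours 1 (0.669) and 4 (0.405) and CDK4WT tumour 3 (0.682), and low in CDK4KO tumour 3 (-0.578) and CDK4WT tumour 2 (-0.605). The log2 CPM of 13537 genes was ranked by r with this mean over the 8 tumours, with the members left out of the ranking beforehand. Among the highest were SFR1 (r = 0.960), PITX1-AS1 (0.939), TNFSF4 (0.927) and ZNF791 (0.894). PITX1-AS1 is an antisense RNA, which unstranded counting could mix with its partner. These values rank genes over 8 tumours and were not tested.

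In the proteasome, the immuno form was the minor one by level per length, and its ratio to the constitutive form differed between genotypes by less than the spread between tumours. Per kilobase of all annotated exons, PSMB8 over PSMB5, its constitutive counterpart, was 0.224 ± 0.0214 in CDK4KO and 0.232 ± 0.0119 in CDK4WT tumours (SD, n = 4 each; 2-sided exact permutation p = 0.60). PSMB9 over PSMB6 was 0.0678 ± 0.00646 in CDK4KO and 0.0682 ± 0.00873 in CDK4WT tumours (exact permutation p = 0.943). PSMB10 over PSMB7 was 0.0384 ± 0.00380 in CDK4KO and 0.0373 ± 0.00385 in CDK4WT tumours (exact permutation p = 0.80). Adjusted over the 3 ratios, p was 0.943 for each, and with 4 against 4 the smallest possible p is 0.0286. With the longest transcripts as lengths the ratios were 0.365, 0.158 and 0.0320 in CDK4KO and 0.377, 0.159 and 0.0311 in CDK4WT tumours. Of the 5 measured genes of the immunoproteasome and its PA28 activator outside the members, 0 were called; the activator subunit PSME1 had a log2 fold change of 0.060 ± 0.070 and POMP, which assembles the proteasome, -0.095 ± 0.072 (edgeR adjusted p = 0.753 and 0.611).

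In peptide loading and trimming, 10 of 10 listed genes were measured and 0 were called by edgeR, with 6 positive and 4 negative differences. LNPEP, an aminopeptidase of endosomes that trims peptides for cross-presentation, had 135, 147, 155 and 139 CPM in CDK4KO tumours, against 120.3, 120.0, 120.1 and 117 CPM in CDK4WT tumours. All CDK4KO values were above all CDK4WT values, which were within 4 CPM of each other. Its log2 fold change was 0.27 ± 0.056 with an edgeR adjusted p of 0.102, and it passed with DESeq2 (adjusted p = 0.00121), with limma voom and library weights (0.0173), and with edgeR without CDK4KO tumour 1 (0.0314). ERAP1, the trimming enzyme of the endoplasmic reticulum, had 78.3, 83.9, 79.0 and 81.7 CPM in CDK4KO tumours and 73.8, 77.7, 81.2 and 73.0 CPM in CDK4WT tumours, and CALR, the chaperone calreticulin, had a log2 fold change of 0.080 ± 0.085 (edgeR adjusted p = 0.588 and 0.728).

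The factors that drive class I genes gave no call. Of 20 measured transcription regulators 0 were called, with 9 positive and 11 negative differences and a median of -0.010. NLRC5, the class I transactivator, had 26.6, 21.5, 22.1 and 30.3 CPM in CDK4KO tumours and 22.1, 23.7, 23.2 and 23.8 CPM in CDK4WT tumours. CDK4KO tumours 1 and 4 were the highest and CDK4KO tumours 2 and 3 among the 3 lowest, so that the genotypes overlapped and the log2 fold change was 0.12 ± 0.11 (edgeR adjusted p = 0.682). IRF1 had 26.4, 25.2, 25.3 and 35.4 CPM in CDK4KO tumours and 30.3, 30.5, 32.03 and 30.3 CPM in CDK4WT tumours, a log2 fold change of -0.13 ± 0.11 (edgeR adjusted p = 0.632); 3 CDK4KO tumours were below, and tumour 4 above, all CDK4WT tumours. NLRC5 and IRF1 were chosen after their values were seen. By the smallest p of the list, CREB1, which binds the CRE core, had a log2 fold change of 0.16 ± 0.071 and RELA, an NF-kB subunit, one of 0.10 ± 0.061 (edgeR adjusted p = 0.380 and 0.526).

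Interferon signalling gave no call either. Of 12 measured interferon receptor and JAK pathway genes 0 were called, with a median log2 difference of 0.021. IFNAR1, a subunit of the type I interferon receptor, averaged 90.1 ± 10.02 CPM in CDK4KO and 79.3 ± 3.33 CPM in CDK4WT tumours, a log2 fold change of 0.18 ± 0.078 (edgeR adjusted p = 0.347). IFNLR1, the receptor of interferon lambda, was near the limit of the table at 1.21 ± 0.595 and 2.20 ± 0.428 CPM (log2 fold change -0.86 ± 0.32, edgeR adjusted p = 0.300).

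Of 28 measured interferon-stimulated genes 14 had a positive and 14 a negative difference, and 0 were called. RIGI, a sensor of viral RNA, had 3.42, 4.21, 3.72 and 4.12 CPM in CDK4KO tumours, against 4.92, 4.66, 5.95 and 5.86 CPM in CDK4WT tumours. All CDK4KO values were below all CDK4WT values, and the log2 fold change was -0.47 ± 0.13 (edgeR adjusted p = 0.201). DTX3L, a ubiquitin ligase partner of PARP9, had a log2 fold change of 0.22 ± 0.096 (edgeR adjusted p = 0.366). The list's summed level ranged wider in CDK4KO tumours, at 957 to 1639 CPM, than in CDK4WT tumours, at 1094 to 1219 CPM.

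Inhibition of CDK4 and CDK6 has been linked in other work to lower DNMT1, a maintenance DNA methyltransferase, and to sensing of double-stranded RNA. Of 12 measured genes of DNA methylation and nucleic acid sensing 0 were called, with 6 differences in each direction. DNMT1, chosen after its values were seen, had 360.4, 359, 353 and 381 CPM in CDK4KO tumours, against 359, 389, 376 and 311 CPM in CDK4WT tumours. The genotypes overlapped, and its log2 fold change was 0.017 ± 0.074 (edgeR adjusted p = 0.949). MAVS, the adaptor of RNA sensing, averaged 297 ± 22.7 CPM in CDK4KO and 252 ± 15.7 CPM in CDK4WT tumours (log2 fold change 0.24 ± 0.072, edgeR adjusted p = 0.224), and TET2, which oxidises methylcytosine, had a log2 fold change of -0.19 ± 0.076 (edgeR adjusted p = 0.329).

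Genes that act on class I molecules after assembly, or beside them at the surface, showed 0 calls as well. Among 11 genes of class I turnover and trafficking, 8 differences were positive and 3 negative. MARCHF4, a membrane ubiquitin ligase that removes class I molecules from the surface, had 14.6, 23.5, 20.4 and 10.8 CPM in CDK4KO tumours and 27.5, 28.8, 31.7 and 19.0 CPM in CDK4WT tumours. The CDK4KO values were low, with an overlap at CDK4WT tumour 4, and the log2 fold change was -0.63 ± 0.24 (edgeR adjusted p = 0.318). IRGQ, reported to direct class I molecules to autophagy, had a log2 fold change of 0.14 ± 0.058 (edgeR adjusted p = 0.334). Of 7 measured checkpoint ligands 6 had a positive difference, and CD274, which encodes PD-L1, had a log2 fold change of 0.12 ± 0.10 (edgeR adjusted p = 0.635). Of 10 proliferation genes 7 had a positive difference, and the cycling marker MKI67 had a log2 fold change of 0.15 ± 0.090 (edgeR adjusted p = 0.527).

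**Figure D5:**
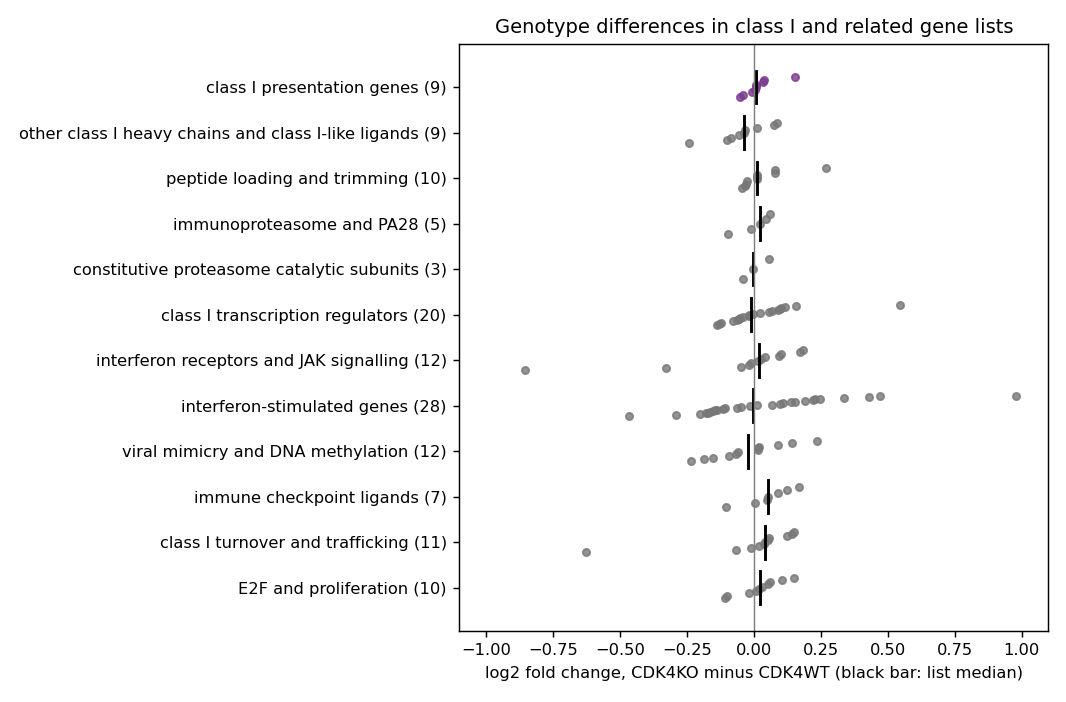
Log2 fold change (x axis, CDK4KO minus CDK4WT) of each measured gene in the class I presentation genes (purple) and 11 related lists (grey), with the number measured in brackets and a black bar at each list's median. The medians lie between -0.036 and 0.054, beside 0.0037 for all genes, and 0 of the genes drawn passed an adjusted p of 0.05 in the edgeR test.

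Leaving out CDK4KO tumours 1 and 4 together did not turn the members into calls. CDK4WT tumours held member extremes too, such as the highest HLA-B and the lowest TAP2, TAPBP and PSMB9 in CDK4WT tumour 4. No pair of CDK4WT tumours was left out in the same way. Without CDK4KO tumours 1 and 4, edgeR called 447 genes of the table but 0 of 9 members, and the smallest adjusted p was 0.259 (TAP1, log2 fold change 0.17). In that comparison of 2 CDK4KO with 4 CDK4WT tumours B2M was at -0.15, HLA-B at -0.081 and PSMB9 at -0.15, and the members' values ran from -0.15 to 0.17. Over 17 alternative fits the smallest member adjusted p was 0.259, again without those tumours.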

How the data were processed

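The values analysed are raw read counts, which the authors deposited as 1 table of genes by libraries. Per the submitters' processing notes, cutadapt, STAR 2.7.11a and featureCounts 2.0.4 were used with hg38; DESeq2 1.46.0 is named as well. Neither the annotation nor the use of strand nor the handling of mouse reads is stated in the sources used here. The 4 CDK4KO columns were matched to samples through their library names. Every gene reached more than 1 CPM in at least 4 libraries, and edgeR's filter removed 0 of 13546 genes.

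Symbols were found for 13465 genes and GENCODE 29 coordinates (hg38) for 13455. The genotype test was edgeR 4.0.16 in R 4.3.3 (TMM, robust quasi-likelihood test, Benjamini-Hochberg adjustment over all genes, threshold 0.05; common biological coefficient of variation 11.7%). Log2 fold changes are CDK4KO minus CDK4WT with the standard error and 95% interval of that fit. Log2 CPM used a prior count of 2. DESeq2 1.42.0, limma 3.58.1 (voom with library quality weights), other scalings and filters, a replicate block and left-out libraries were alternatives. Correlations and ratios were computed with scipy 1.17.1. The fit and the permutation test were tested on simulated data. The members, lists and tests were chosen with earlier results of these data known. Text named the members, CDK4, genes with the smallest p of each list and the constitutive proteasome subunits. It also named genes of the 5 most like the members' mean. Other genes are marked as chosen after their values were seen. PSMB8-AS1 was chosen so as well. Named cell type markers come from the marker lists and lie outside these rules. A few genes that these rules would name are not reported here.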

Additional observations from a re-analysis of the deposited data

Results flagged for a closer look

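Of 94 groups of 4 tumours examined for named genes, 7 held a tumour far from the other 3 of its genotype, and chance marks about 1 in 20 groups. The members among them were TAP1, with 53.524 CPM in CDK4KO tumour 2 above the others at 51.886 to 51.936, and TAP2, with 56.755 CPM in CDK4WT tumour 4 below the others. The TAP1 value stands apart because the other 3 CDK4KO tumours were very close together. In peptide loading, CALR had 1668.9 CPM in CDK4KO tumour 1, above its group, and LNPEP 116.98 CPM in CDK4WT tumour 4, below its group. PSMB6 had 99.009 CPM in CDK4WT tumour 2, above its group. IRF1 had 35.412 CPM in CDK4KO tumour 4 and 32.032 CPM in CDK4WT tumour 3, both above their groups.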

How the results depend on the processing

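Over 17 alternative fits 0 of 9 members were called in each. Of 153 member values, 125 kept their sign and 28 did not, the largest of these being 0.145 in size. Some of the 125 could not change. The fit with no filter repeated the main fit, because edgeR's filter removed 0 genes. The fit without robust dispersions gave the members the same log2 fold changes. The number of genes called over the table, 8 in the edgeR fit, was 315 with DESeq2, 285 with limma voom and library weights, 14 with library size only and 447 without CDK4KO tumours 1 and 4; leaving out single tumours gave 0 to 183, the highest without CDK4KO tumour 1. The cause was not tested.

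The deviations of same-numbered tumours had correlations of -0.031, -0.014, 0.0035 and 0.19 for numbers 1 to 4. These values do not show that the numbers pair the tumours, and they cannot exclude it. With the replicate number as a block, 13 genes and 0 members were called, HLA-DPA1 turned to -0.026, and only number 4 correlated best with its own number.

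With limma voom the log2 fold change turned to -0.036 for HLA-B, -0.049 for B2M, -0.041 for TAPBP, -0.050 for PSMB8, -0.047 for PSMB10, -0.033 for DNMT1, -0.086 for CIITA, -0.78 for HLA-DRA, -0.32 for HLA-DRB1, -0.69 for HLA-DPA1 and -0.037 for CD74. Without CDK4KO tumours 1 and 4 it turned to -0.081 for HLA-B, -0.15 for B2M, -0.031 for TAPBP, -0.056 for PSMB8, -0.047 for PSMB10, -0.087 for NLRC5, -0.013 for DNMT1, -0.41 for CIITA, -1.29 for HLA-DRA, -0.80 for HLA-DRB1, -1.18 for HLA-DPA1 (called, adjusted p = 0.0401 with edgeR) and -0.29 for CD74.

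Leaving out 1 tumour at a time gave -0.062 to 0.091 for HLA-B, -0.052 to 0.029 for HLA-C, -0.070 to 0.12 for HLA-E, -0.059 to 0.069 for B2M, 0.13 to 0.20 for TAP1, -0.13 to -0.014 for TAP2, -0.010 to 0.076 for TAPBP, -0.034 to 0.045 for PSMB8, -0.14 to 0.020 for PSMB9, -0.037 to 0.025 for PSMB7, -0.020 to 0.14 for PSMB10, -0.048 to 0.058 for DNMT1, -0.079 to 0.65 for HLA-DRA and -0.18 to 0.48 for HLA-DPA1. Other log2 fold changes that 1 tumour moved by over 1.5 times include IFNAR1 (0.11) and CALR (0.0054) and PSME1 (0.0019) without CDK4KO tumour 1, POMP (-0.044) without CDK4KO tumour 3, IRF1 (-0.26), DTX3L (0.13) and NLRC5 (0.013) without CDK4KO tumour 4, and MKI67 (0.060) and CD274 (0.062) without CDK4WT tumour 4; none was called. The member pairs past the adjusted correlation test stayed at 0 in the 12 alternatives tried, with a smallest adjusted p (permutation) of 0.0527 for deviations from genotype means. That p is approximate, because the deviations sum to 0 within each genotype and were permuted across both. LNPEP had an adjusted p of 0.0132 with edgeR without CDK4KO tumours 1 and 4. PSMB9, at 338 to 495 reads a library, had the least precise difference of the members. With the longest protein-coding transcripts as lengths, 5 neighbouring pairs of members had ranges that did not overlap, against 4 with all annotated exons, in another order.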

Other observations

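Class II genes, which were chosen after their values were seen, varied more between tumours than any class I member. CIITA, the class II transactivator, had 23.7, 7.76, 9.77 and 27.0 CPM in CDK4KO tumours, against 14.2, 9.65, 11.9 and 10.96 CPM in CDK4WT tumours. HLA-DRA had 23.8, 3.58, 5.33 and 22.1 CPM in CDK4KO tumours and 11.4, 6.14, 13.6 and 12.6 CPM in CDK4WT tumours. HLA-DRB1 had 26.3, 4.18, 6.77 and 22.5 CPM in CDK4KO tumours and 10.5, 6.05, 10.3 and 11.3 CPM in CDK4WT tumours. CD74, the invariant chain of class II molecules, had 209, 88.2, 122 and 216 CPM in CDK4KO tumours and 138, 98.8, 127 and 149 CPM in CDK4WT tumours. HLA-DPA1 had 7.45, 1.93, 1.78 and 8.27 CPM in CDK4KO tumours and 3.94, 2.80, 5.09 and 4.99 CPM in CDK4WT tumours. In these 5 genes CDK4KO tumours 1 and 4 were the highest of all 8, and the lowest was CDK4KO tumour 2, except for HLA-DPA1, where it was CDK4KO tumour 3. None passed edgeR's test between genotypes (adjusted p of 0.600 for CIITA, 0.858 for HLA-DRA, 0.661 for HLA-DRB1, 0.900 for HLA-DPA1 and 0.688 for CD74). All of them but CIITA are also on the haematopoietic marker list, of which 12 of 20 genes were measured. On that list 6 differences were positive and 6 negative, and PTPRC, CD14 and LCP1 were chosen from it after their values were seen. The leukocyte gene PTPRC had 2.46, 2.26, 3.39 and 3.21 CPM in CDK4KO tumours and 4.32, 3.45, 4.30 and 2.53 CPM in CDK4WT tumours. The monocyte gene CD14 had 3.32, 1.59, 1.02 and 1.36 CPM in CDK4KO tumours and 1.37, 0.974, 1.04 and 1.07 CPM in CDK4WT tumours. LCP1 had 15.9, 17.6, 17.9 and 19.0 CPM in CDK4KO tumours, against 27.9, 21.6, 27.0 and 16.9 CPM in CDK4WT tumours. Its log2 fold change was -0.41 ± 0.14 (edgeR adjusted p = 0.274). The part of blood cells in the class II levels was not tested.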
